A study of Rattus norvegicus with 8 samples.

Results

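Xpo7, Tmcc2, Kel, Ahsp and Nprl3 are 5 genes with roles in red cells or their precursors, and their levels were followed here in the whole blood of 8 rats. They were chosen by their wide range over these 8 arrays and by highest values in the high-fat group, so every difference between the diets given for them is a description and carries no test. The array held 8 probe sets (groups of short probes that read the same transcript) whose annotation named 1 of the 5 genes and no other, out of 31042 probe sets for transcripts and 14217 genes. Xpo7 had 3 of them, Kel 2, and Tmcc2, Ahsp and Nprl3 had 1 each. The pick had no numerical threshold.

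The animals were male Wistar rats, bought at 7 weeks of age, acclimated for 1 week on a normal diet and then fed for 8 weeks. The 4 normal arrays came from rats kept on the normal diet (CE-2), and the 4 high-fat arrays from rats on a high-fat diet (Quick fat). The labels name no genetic change in either group, and blood of both groups was taken on day 56 after an overnight fast. The labels give 10 animals fed per diet and call the arrays of a diet biological replicates, so each array was taken as 1 rat. A further diet with mulberry leaf powder is not analysed here.

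Red cells are made from nucleated precursors in the marrow, which fill with hemoglobin, condense and expel the nucleus, and enter the blood as reticulocytes. Reticulocytes still hold RNA and lose it as they mature, and they are the main source of red cell transcripts in blood. In whole blood, fewer cells of a type and less RNA per cell cannot be told apart. Xpo7 (exportin 7) is a nuclear transport receptor needed for the condensation of the nucleus in red cell precursors. Tmcc2 codes for a membrane protein with coiled-coil regions that is abundant in late red cell precursors. Kel codes for the Kell blood group protein, a zinc peptidase of the red cell surface bound to the Xk protein. Ahsp (alpha hemoglobin stabilizing protein) is the chaperone of free alpha globin. Nprl3 is a subunit of GATOR1, a complex that restrains mTORC1 signalling when amino acids are scarce, and its introns hold distal enhancers of the alpha globin genes beside it.

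RefSeq's promoter table (GRCr8) held 3 of the 5 genes, Tmcc2, Kel and Nprl3. The 250 bases before the start are shown for these to compare what the promoters of genes picked together hold; all 3 genes were highest on the same array, which is part of how they were chosen, and their courses over the other arrays differed. Capitals mark matches, on either strand, to the core AGATAA read by GATA factors such as the red cell regulator Gata1, to that core with T as its first letter, G as its last letter or both, or to the letters CCACCC and the longer CACACCC, which share their end and are read by factors of the KLF family. The variants of the GATA core were added after the data were seen.
Tmcc2, chr13:46383863-46384112, minus strand: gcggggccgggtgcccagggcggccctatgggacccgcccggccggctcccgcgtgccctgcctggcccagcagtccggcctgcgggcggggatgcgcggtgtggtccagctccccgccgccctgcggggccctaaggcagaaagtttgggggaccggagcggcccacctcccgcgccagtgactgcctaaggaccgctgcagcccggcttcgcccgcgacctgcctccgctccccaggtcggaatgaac
Kel, chr4:71551774-71552023, minus strand: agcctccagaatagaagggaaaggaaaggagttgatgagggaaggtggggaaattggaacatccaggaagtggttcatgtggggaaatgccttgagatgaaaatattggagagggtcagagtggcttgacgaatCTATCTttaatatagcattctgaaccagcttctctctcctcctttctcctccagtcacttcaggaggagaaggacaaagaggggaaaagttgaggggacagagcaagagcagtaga
Nprl3, chr10:15859567-15859816, plus strand: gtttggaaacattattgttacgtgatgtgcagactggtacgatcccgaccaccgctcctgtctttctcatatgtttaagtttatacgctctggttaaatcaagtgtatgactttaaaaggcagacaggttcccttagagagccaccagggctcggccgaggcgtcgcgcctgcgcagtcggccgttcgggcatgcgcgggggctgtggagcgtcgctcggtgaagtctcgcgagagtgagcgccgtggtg
Kel held 1 match, AGATAG on the opposite strand, beginning 116 bases before the start, and the windows of Tmcc2 and Nprl3 held none of the letters searched. Among 33469 promoters of the same length, 27.0% held the GATA core or a variant, 10.3% held AGATAA itself, 26.1% held CCACCC and 6.12% held CACACCC. The windows also differed in composition, with 76.4% G and C in Tmcc2, 56.0% in Nprl3 and 46.8% in Kel, against a median of 51.2% over all promoters. A match of letters is not a bound site.

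The deposited values read as log2 levels from 5.19 to 15.25, but they differed very little between arrays. The range (highest minus lowest of the 8 arrays) of the median probe set was 1.78e-05, its 99th percentile was 0.00131, and 5 probe sets had a range over 0.1. The differences were therefore not read as log2 ratios of RNA amount. Each is given in the units of the table and also divided by the pooled SD of the 4 rats of a diet, in within-group SDs. The medians of the 8 arrays lay within 2.17e-04 of each other, and those of the 4 high-fat arrays were all above those of the 4 normal arrays. Nothing in the labels gives a slide or a scan date, and the number of arrays limits the precision. As a check of the labelled tissue, the globin genes Hbb and Hba-a3 stood at 15.09 and 13.70 in the normal group, and the highest value of the table was 15.25.

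High-fat replicate 1 stood apart from the other arrays in these genes. All 8 member probe sets were highest on that array, against 8.73% of all probe sets, and that is part of what the members were picked for. This array was not the one that was highest most often. Of the 100 probe sets with the widest range, 59 were highest in high-fat replicate 4 and 18 in high-fat replicate 1. The diet difference of each member probe set is given below with and without high-fat replicate 1.

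Xpo7 had the widest range of all 31042 probe sets, through its probe set 1371516_at. Its level was 8.4515, 8.4650, 8.4519 and 8.4563 in normal replicates 1 to 4 and 8.8595, 8.4819, 8.4828 and 8.4840 in high-fat replicates 1 to 4. All 4 high-fat rats lay above all 4 normal rats, and high-fat replicate 1 lay 0.375 above the next array. The group means were 8.46 ± 0.00629 (SD, n = 4) and 8.58 ± 0.188, a difference of 0.121 or 0.907 within-group SDs. Without high-fat replicate 1 the difference was 0.0267, and the 3 remaining high-fat rats had a SD of 0.00105. The pooled within-group SD fell from 0.133 to 0.00492 without that array, so the smaller difference amounted to 5.44 within-group SDs. The range was then 0.0325, the 12th widest of the table.

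Both further probe sets of Xpo7 were highest in the same rat but did not repeat the rest of the pattern. Probe set 1397312_at read 7.4187, 7.4180, 7.4205 and 7.4187 in the normal rats and 7.4351, 7.4178, 7.4196 and 7.4187 in the high-fat rats. The 3 high-fat rats other than replicate 1 lay among the normal rats, and without replicate 1 the difference of 0.00387 turned to -2.23e-04. Probe set 1397747_at had a range of 1.64e-04, with 6.58623 in high-fat replicate 1, 6.58616 in high-fat replicate 3, 6.58609 in high-fat replicate 2 and 6.58606 in high-fat replicate 4, against 6.58606 to 6.58608 in the normal rats. Its groups overlapped through high-fat replicate 4. The separation of the diets outside high-fat replicate 1 was thus seen in 1 of the 3 probe sets of Xpo7. Where on the transcript each probe set lies was not analysed here.

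Kel was the other member with groups that did not overlap. Its probe set 1374330_at read 9.4943, 9.4968, 9.4975 and 9.4949 in the normal rats and 9.5266, 9.4979, 9.5035 and 9.5000 in the high-fat rats. High-fat replicate 1 was highest and high-fat replicate 3 second, and high-fat replicate 2 lay just above the highest normal rat. The difference was 0.0111, or 1.18 within-group SDs, and without high-fat replicate 1 it was 0.00459, or 2.14 within-group SDs. The second probe set of Kel, 1398720_at, had a range of 1.74e-04. It read 6.65571 to 6.65585 in the normal rats and 6.65574 to 6.65588 in the high-fat rats, so the groups covered nearly the same span. Its difference was 3.38e-05, and 9.89e-06 without high-fat replicate 1. In all, the 4 high-fat rats lay above the 4 normal rats in 2 of 8 member probe sets, against 0.586% of all probe sets, and 0 of 8 showed the reverse order, against 0.857%. Without high-fat replicate 1 the count was again 2 of 8, against 1.48%. The pick used these values, so nothing is read from the counts.

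Tmcc2 had the third widest range of the table. Its level was 10.7080, 10.7112, 10.6991 and 10.7156 in the normal rats and 10.8889, 10.7276, 10.7269 and 10.7052 in the high-fat rats. High-fat replicates 2 and 3 lay above every normal rat and high-fat replicate 4 below 3 of them, so the groups overlapped. The difference was 0.0537, or 0.888 within-group SDs, and without high-fat replicate 1 it was 0.0114, which is 1.18 within-group SDs of the 7 arrays left.

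The globin chaperone Ahsp spread more evenly over the arrays. Its level was 10.9033, 10.9060, 10.9061 and 10.9092 in the normal rats and 10.9190, 10.9064, 10.9109 and 10.9110 in the high-fat rats. High-fat replicate 2 lay below normal replicate 4, so the groups overlapped. The difference was 0.00570, or 1.40 within-group SDs, of which 42.0% came from high-fat replicate 1, and it was 0.00331, or 1.33 within-group SDs, without that rat. Quantile normalization of the table gave 0.00343 for all 8 arrays. For Xpo7, Tmcc2 and Nprl3 the corresponding shares were 77.9%, 78.7% and 75.7%, and for Kel 58.7%, each in the probe set with the widest range.

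Nprl3 read 7.7205, 7.7210, 7.7206 and 7.7220 in the normal rats and 7.7390, 7.7219, 7.7225 and 7.7227 in the high-fat rats. Apart from high-fat replicate 1 the values lay within 0.00222 of each other, and high-fat replicate 2 lay between normal replicates 2 and 4. The difference was 0.00550, or 0.930 within-group SDs, and without high-fat replicate 1 it was 0.00133, or 2.27 within-group SDs. On the 7 arrays left, the high-fat mean was higher in 7 of 8 member probe sets, against 49.3% of all genes. The exception was 1397312_at of Xpo7. The members were picked for high values in the high-fat group, so nothing is read from this count.

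**Figure D1:**
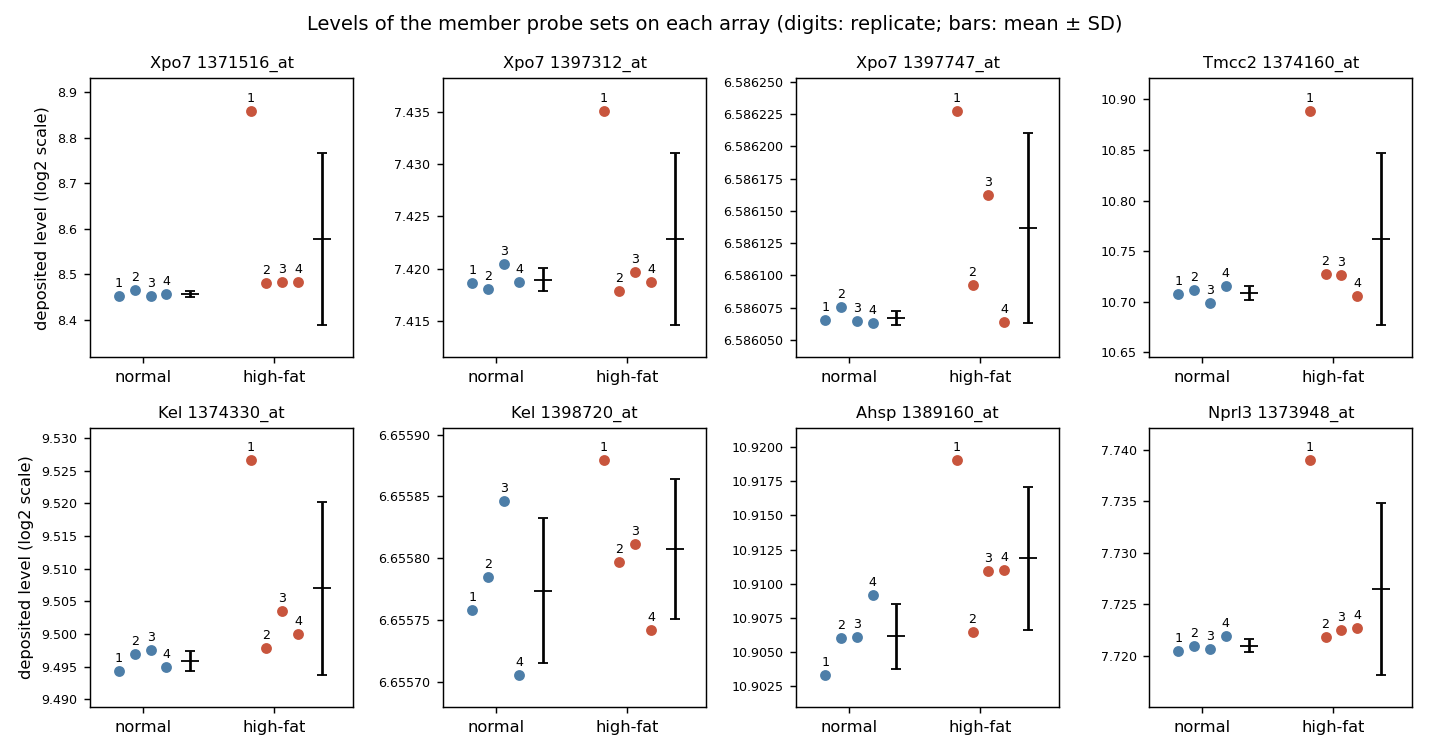
Deposited log2 level (vertical axis, a separate scale in each panel) of the 8 member probe sets in the 4 normal (blue) and 4 high-fat (red) rats; digits are replicate numbers and bars the mean ± SD of a group. High-fat replicate 1 is the highest array in all 8 panels.

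**Figure D2:**
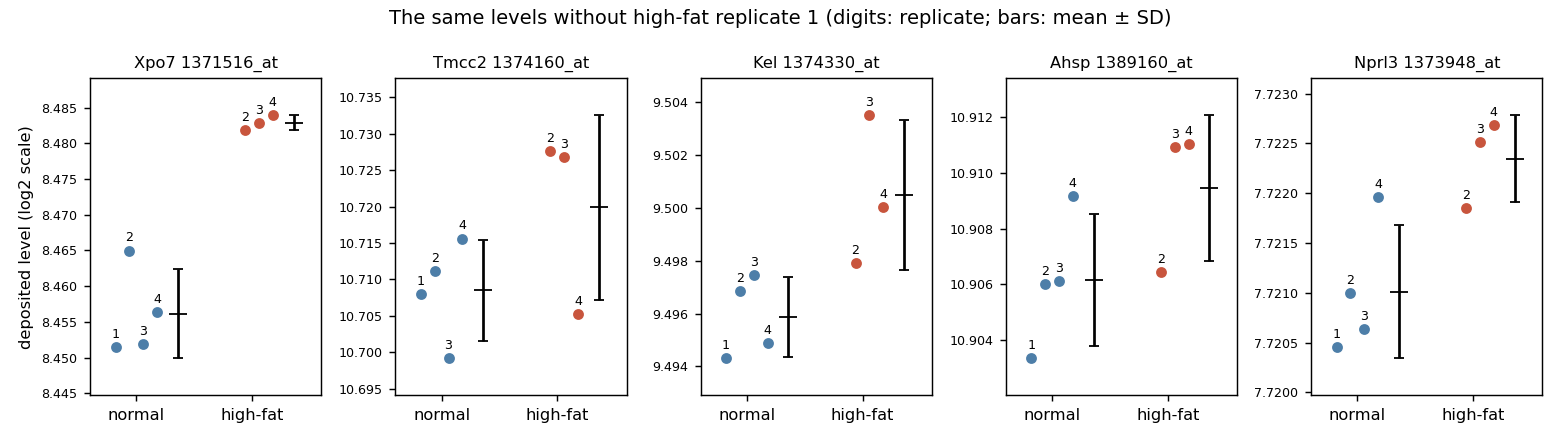
The same levels without high-fat replicate 1 for the widest probe set of each gene (vertical axis, deposited log2 level, a separate scale in each panel; bars, mean ± SD of 4 normal and 3 high-fat rats). The groups stay apart for Xpo7 and Kel and overlap for Tmcc2, Ahsp and Nprl3.

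How far high-fat replicate 1 set the width of each gene is shown by the ranges with and without it. The range of Xpo7 was 12.5 times as wide with that array as without it, that of Nprl3 8.34 times, that of Tmcc2 6.68 times, that of Kel 3.51 times and that of Ahsp 2.04 times. Of the members' widest probe sets, Xpo7 and Tmcc2 were then 12th and 15th in the table, Kel 57th, Ahsp 68th and Nprl3 190th.

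**Figure D3:**
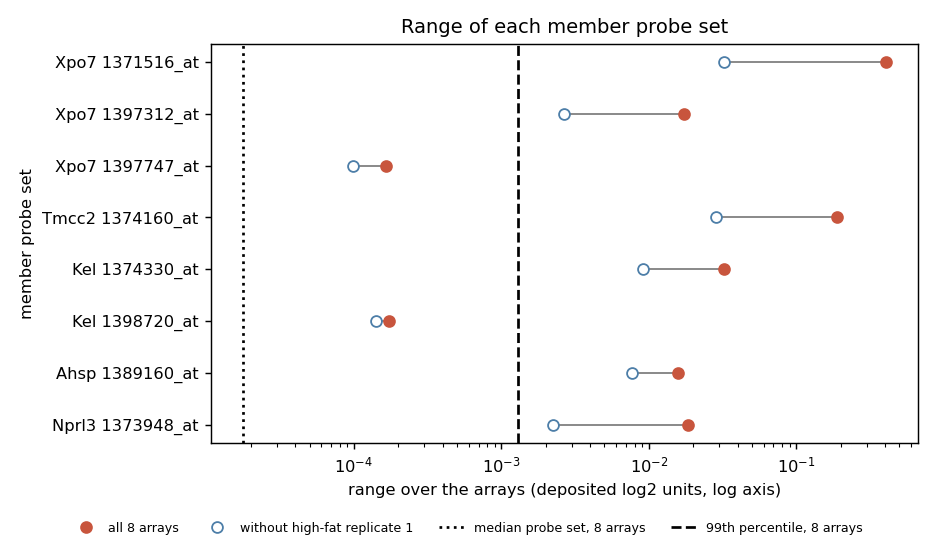
Range over the arrays (horizontal log axis, deposited log2 units) of each member probe set, with all 8 arrays (filled) and without high-fat replicate 1 (open); vertical lines mark the median and the 99th percentile of all probe sets. The dimmer probe sets 1397747_at of Xpo7 and 1398720_at of Kel lie below the 99th percentile of 0.00131 with all 8 arrays, the other 6 above it.

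The genes whose course over the 8 arrays was most like that of Xpo7 were found by Pearson's r with its probe set 1371516_at. Candidates were the 1633 probe sets with 1 gene symbol whose range was at least that of the narrowest member probe set. The values share the 8 arrays, and 1 array dominates Xpo7, so r is a description and not a test. Of the 10 genes with the highest r, 3 were members: Nprl3 (r = 0.997), Tmcc2 (0.992) and Kel (0.978). The others were Gypc (0.997), which codes for glycophorin C of the red cell membrane, the ubiquitin ligase Nedd4l (0.974), the transcription elongation subunit Supt4h1 (0.972), the glutamine carrier Slc1a5 (0.972), the stress-induced gene Gadd45a (0.970), the fatty acid receptor Cd36 (0.968) and the tetraspanin Tspan8 (0.968). Ahsp had r = 0.868. All 10 were highest in high-fat replicate 1, which follows from the choice, since that array dominates the course of Xpo7.

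Without high-fat replicate 1 the likeness to Xpo7 was lower for all 10 genes and differed among them. Over the 7 arrays left, r was 0.908 for Tspan8, 0.826 for Nprl3, 0.800 for Gypc, 0.786 for Cd36, 0.784 for Kel, 0.765 for Nedd4l, 0.705 for Supt4h1, 0.587 for Tmcc2, 0.513 for Slc1a5 and -0.360 for Gadd45a. Spearman's rho over the 8 arrays was lowest for the same gene, 0.143 for Gadd45a, then 0.548 for Tmcc2, and 0.929 for Nprl3. With both arrays farthest from the median of Xpo7 left out (high-fat replicate 1 and normal replicate 1), r over 6 arrays was 0.768 for Nprl3, 0.849 for Gypc, 0.718 for Kel, 0.561 for Tmcc2 and -0.252 for Gadd45a. The likeness of Gadd45a to Xpo7 rested on high-fat replicate 1. So did that of the other Xpo7 probe set 1397312_at, with r = 0.980 over 8 arrays and -0.276 over the 7 left. With each array centred on its median, 8 of the 10 genes were the same. By Spearman's rho 4 of the 10 were the same, and by r without high-fat replicate 1 only 1 was.

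**Figure D4:**
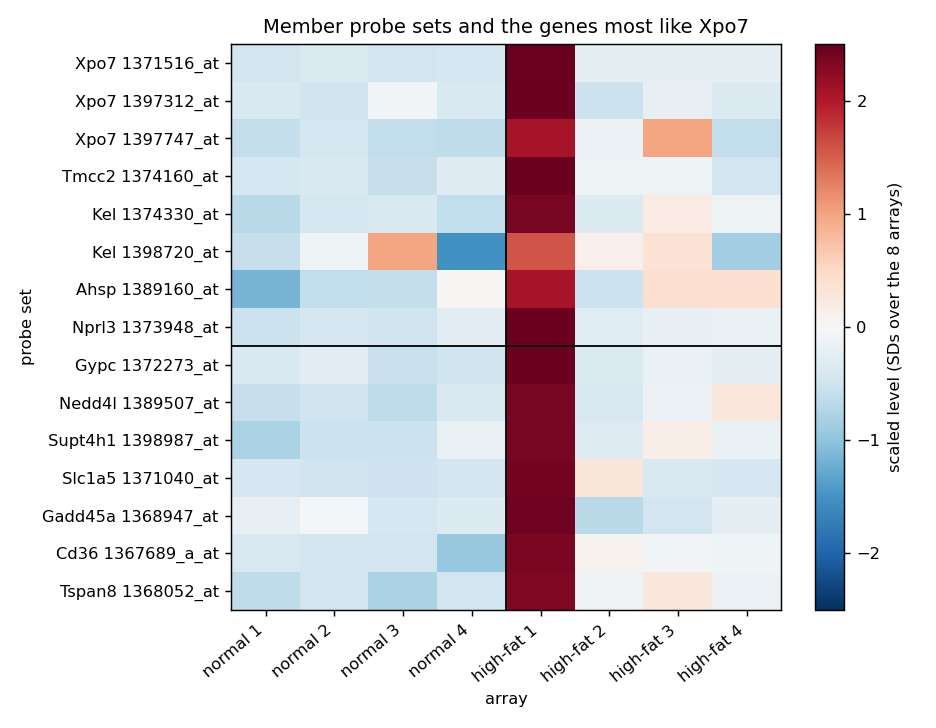
Scaled level (colour; SDs from the mean of the 8 arrays) of the member probe sets (above the line) and of the other genes most like Xpo7 (below it), by array. High-fat replicate 1 is the reddest column in every line; Kel 1398720_at, with a scaled level of 1.58 there, is the palest.

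The relatives and partners of the members had narrower ranges than the widest probe set of the member they belong to. Among 7 other genes of the exportin group, which carry proteins and RNA through the nuclear pore, the 11 probe sets had ranges from 3.17e-06 to 1.99e-04 and 1 of them, for Ranbp17, was highest in high-fat replicate 1. In the TMCC family, Tmcc1 and Tmcc3 had 4 probe sets with ranges up to 4.13e-05 and 0 of them highest in that rat. For Kel, its partner Xk and the related peptidases Mme, Ece1, Ece2 and Phex had ranges up to 6.01e-05, with Ece1 highest in that rat. The GATOR1 partners of Nprl3, Nprl2 and Depdc5, had 3 probe sets with ranges up to 1.13e-05, and 2 of them were highest in high-fat replicate 1. Of these, Depdc5 stood 1.64 within-group SDs above normal, though high-fat replicate 4 had the lowest of its 8 values. The probe sets of Nprl2 stood at -0.278 and 0.335. Among the GATOR2 and KICSTOR genes, which act on GATOR1 or anchor it, both probe sets of Itfg2 and none of the other 8 were highest in that rat. Over all relatives and the alpha globin locus genes given next, this was 6 of 44 probe sets, against 8.73% of all probe sets. Nothing is read from counts this small.

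Nprl3 lies at the alpha globin locus on chromosome 10, and the values of its neighbours there are given without a test, since Nprl3 was chosen by its range and its highest array. The alpha globin gene Hba-a3, the target of enhancers within Nprl3, had a range of 0.00366 and was highest in high-fat replicate 4, at 13.7080, while high-fat replicate 1 had the lowest of its 8 values, 13.7043. The embryonic globin Hbz, the DNA glycosylase Mpg, and Rhbdf1, Snrnp25, Polr3k and Luc7l had ranges up to 5.99e-05. None of the 10 probe sets of this locus was highest in high-fat replicate 1. For the other members, 4 neighbours each were looked up in the RefSeq order of genes, a choice made after the data were seen. With those of Nprl3 this gave 20 genes, of which 16 were measured with 22 probe sets. Against 8.73% of all probe sets, 3 of the 22 were highest in high-fat replicate 1. Those were for Klhdc8a beside Tmcc2, Trpv5 beside Kel and Rusf1 beside Ahsp, and the widest of the 22 ranges was 1.19e-04. By limma, 0 of the 44 probe sets of relatives and locus genes passed an adjusted p of 0.05, and 0 had an unadjusted p under 0.05. Of all 31042 probe sets 0 passed (0%), with 699 at an unadjusted p under 0.05.

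Some other genes of the red cell programme were also highest in the rat in which the members were. Of 75 listed genes of the red cell membrane, cytosol, heme and iron handling, regulators and maturation, 59 were measured apart from the members, each by its brightest probe set. The lists were written with earlier results of these data known, so the shares given for them are descriptions. High-fat replicate 1 was the highest array for 17 of these 59, or 28.8%, against 8.58% of all 14217 genes. They included Gypc, Rhag, Aqp1 and Dmtn of the membrane, the carbonic anhydrase Car1, the heme synthesis enzymes Uros and Ppox, the regulators Nfe2, Hemgn and Foxo3, and Fbxo7 and Ube2h of the ubiquitin system. The scaled level of that rat can reach at most 2.47 with 8 arrays. Its median over the 59 genes was 0.384, against -0.144 over all genes. The lowest was -1.79 for Tal1, and the highest were 2.45 for Gypc, 2.42 for Ube2h, 2.39 for Car1, 2.32 for Uros and 2.31 for Ppox. In absolute terms these were small moves, with ranges of 0.0137 for Gypc, 0.00364 for Car1, 0.00119 for Uros, 3.97e-04 for Ppox and 1.18e-05 for Ube2h. The alpha globin gene Hba-a3 was not highest in that rat. The 8 values of Hbb, near the top of the table, differed by 1.00e-08, the last digit given, so this probe set shows no course over the arrays. For Car2 the brightest probe set gave a range of 1.4e-05.

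Between the diets, 43 of the 59 red cell genes had a higher mean in the high-fat group, 15 a lower one and 1 was equal, against 47.4% higher among all genes. Their median stood 0.477 within-group SDs above normal, and that of all genes at -0.0374. Without high-fat replicate 1 these were 36 of 59 and 0.280, with 49.3% of all genes higher. With each array centred on its median, 17 of 59 were higher and the median was -0.657, while 2.38% of all genes were higher and their median was -1.20. With quantile normalization on top, 16 (27.1%) were higher, 17 lower and 26 equal, and 24.0% of all genes were higher. By limma 0 of the 59 passed an adjusted p of 0.05 and 6 had an unadjusted p under 0.05, against 284 or 2% of all genes. The 3 largest differences upward were those of Hemgn, which codes for the red cell precursor protein hemogen, Urod, an enzyme of heme synthesis, and Alad, another, at 2.63, 2.0 and 1.90 within-group SDs. Downward they were the autophagy kinase Ulk1 at -2.37, the actin filament cap Tmod1 at -1.52 and the mitochondrial transporter Abcb10 at -0.923. All 6 had an adjusted p of 1 by limma.

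Hemgn, named above for its difference, had r = 0.777 with Xpo7 over the 8 arrays, below the 0.868 of Ahsp. It read 10.0611, 10.0632, 10.0638 and 10.0626 in the normal rats and 10.0686, 10.0655, 10.0658 and 10.0653 in the high-fat rats. As for Xpo7, high-fat replicate 1 was highest, the 3 other high-fat rats lay close together, and all of them lay above the normal rats. Within a diet the order differed. Normal replicate 3 was the highest normal rat for Hemgn and normal replicate 2 for Xpo7. Groups without overlap in that direction were found in 2 of the 59 genes, Hemgn and Urod, against 0.591% of all genes. The reverse order was found in 1, Ulk1, against 103 of 14217 genes. With each array centred 1 of the 59 had all high-fat rats above, against 0.0703% of all genes. With quantile normalization it was 0 of the 59, against 0.0774%.

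Markers of other blood cells were looked at for the same array. High-fat replicate 1 was highest for 1 of 11 platelet genes (Gp9), 0 of 9 neutrophil genes, 1 of 12 T cell genes (Cd4), 0 of 7 B cell genes and 0 of 9 monocyte genes. In all this was 2 of 48, or 4.17%, against 8.58% of all genes. Lists this short hold few such genes at that share, so nothing is read from the counts of 0. The mean scaled level of the platelet list ran from -0.292 to 0.724 in the normal rats and from -1.56 to 0.390 in the high-fat rats, and high-fat replicate 1 was at 0.196. For neutrophil genes the spans were -0.837 to 0.746 and -0.990 to 0.735, with that rat at 0.0629. For T cell genes they were -1.50 to 1.05 and -0.406 to 0.430, with that rat at -0.309, and for B cell genes -0.702 to 1.03 and -1.22 to 0.807, with that rat at 0.158. Monocyte genes spanned -0.377 to 0.138 and -0.450 to 1.65, with that rat at -0.199 and high-fat replicate 4 the highest. In each of these 5 lists high-fat replicate 1 lay within the span of the other rats. In 3 of the 5 red cell lists, those of the membrane, the cytosol and the regulators, it was the highest rat, at 0.888, 0.587 and 0.577. In the lists of heme and iron and of maturation, high-fat replicate 3 was higher. The part of red cell or white cell number in these values was not tested.

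**Figure D5:**
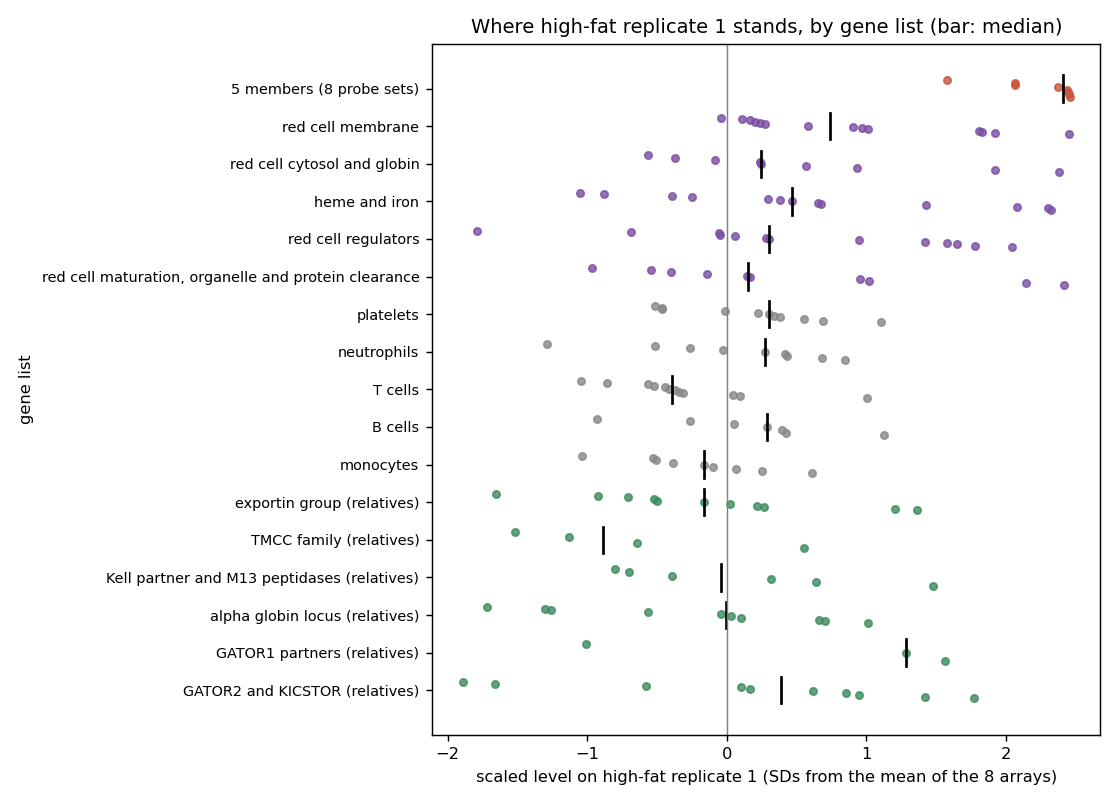
Scaled level on high-fat replicate 1 (horizontal axis, SDs from the mean of the 8 arrays) of the member probe sets (red), genes of the red cell lists (purple), markers of other blood cells (grey) and relatives of the members (green); 1 point per gene or, for members and relatives, per probe set, and bars mark medians. The members lie between 1.58 and 2.46. The list medians run from 0.155 to 0.743 for red cells and from -0.392 to 0.304 for other blood cells, so the 2 spans overlap.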

How the data were processed

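Whole blood RNA of 4 normal and 4 high-fat rats was labelled with biotin and read on Affymetrix 3' arrays, per the labels' protocols. The authors deposited 1 table of levels that read as log2 values. The methods of background correction, normalization and probe summary were not given in the sources used here. Because the differences between arrays are compressed, no fold changes are given. Of 31099 probe sets, 57 controls were left out. The platform annotation gave 1 symbol for 20826 of the rest, several for 436 and none for 9780.

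The diets were compared over all 31042 probe sets by the moderated test of limma (version 3.58.1, R version 4.3.3; two-sided, no covariates, Benjamini-Hochberg adjustment, threshold 0.05). On simulated data with the real means and SDs it called 98 of 100 probe sets shifted by 8 SDs and 37 of 100 shifted by 4. The diet difference of the members got no test. For lists, a gene was represented by its brightest probe set, and symbols were also matched through RefSeq synonyms. Means equal within 1e-12 were counted as equal. The members and lists were chosen with earlier results of these data known. Named were all member probe sets, fixed relatives, the 10 genes most like Xpo7, the 3 red cell genes with the largest difference in each direction and the 10 widest probe sets; others were named after their values were seen. Alternatives were quantile normalization, centring, a filter on dim probe sets, trend and robust eBayes, array weights, a block for the replicate number, other probe set choices and leaving out each array. No 2 arrays were identical. Nothing but the word biological in the titles says that arrays are separate animals, so p-values measure the spread between these arrays.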

Additional observations from a re-analysis of the deposited data

Results flagged for a closer look

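A sample was singled out where its gap to the nearest rat of its group took an unusually large share of the range of that group of 4 (Dixon's criterion for 4 samples at its usual level). Chance alone gives this in about 1 of 20 groups of genes not chosen by their values. Here it occurred 22 times in 146 groups of 73 probe sets, but these include the members, the genes most like Xpo7 and the widest probe sets, which were chosen by range or by their course, so the number is not set against that rate and the shares are descriptions. High-fat replicate 1 was such a highest array in Xpo7 (a share of 0.994 for 1371516_at and 0.894 for 1397312_at), Nprl3 (0.952) and Tmcc2 (0.878). It was also in Gypc (0.929), Cd36 (0.918), Gadd45a (0.860), Hemgn (0.854) and Tspan8 (0.830), of which all but Hemgn were named for their likeness to Xpo7. Kel and Ahsp were not singled out. In the third probe set of Xpo7, 1397747_at, normal replicate 2 was the highest of its group with a share of 0.845.

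Among other genes, high-fat replicate 1 was a lowest array in Sec13 (0.839). High-fat replicate 4 was a highest array in Gzmb (0.980), Hba-a3 (0.939), Ldhb (0.880) and Fcgr3a (0.849), and a lowest one in Wdr24 (0.921). In the normal group, normal replicate 3 was lowest in Xpo6 (0.927) and Cse1l (0.843), normal replicate 4 lowest in Seh1l (0.938) and Cd36 (0.891) and highest in the unnamed probe set 1381639_at (0.933), and normal replicate 1 lowest in Ldhb (0.885).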

How the results depend on the processing

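Quantile normalization of the deposited values gave 32 probe sets past limma against 0, 61 with groups that did not overlap against 448, 16 red cell genes higher against 43, and a difference of -6.20e-06 for 1397747_at of Xpo7. The median of the red cell genes was then 0. Centring each array on its median shifts every difference by -6.60e-05, more than the range of most probe sets. It gave 15556 probe sets without overlap, 17 red cell genes higher with a median of -0.657, 3.56e-06 for 1397747_at of Xpo7 and -3.21e-05 for 1398720_at of Kel. Among the brighter probe sets, 196 had no overlap. Of the 10 genes most like Xpo7, 4 were shared with the set by Spearman's rho and 1 with the set by r without high-fat replicate 1.

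Leaving out each array in turn gave 843 to 1510 probe sets without overlap, since fewer arrays overlap less often, and 0 past limma. Differences ranged from 0.0267 to 0.153 for 1371516_at of Xpo7, from -2.23e-04 (without high-fat replicate 1) to 0.00554 for its 1397312_at and from 3.91e-05 to 9.38e-05 for its 1397747_at. They ranged from 0.0114 to 0.0726 for Tmcc2, from 0.00459 to 0.0142 and from 9.89e-06 to 5.80e-05 for 1374330_at and 1398720_at of Kel, from 0.00331 to 0.00751 for Ahsp and from 0.00133 to 0.00705 for Nprl3. For red cell genes it gave 36 to 48 higher and a median of 0.280 to 0.748. The labels do not say that a replicate number marks a shared litter or day. Same-numbered deviations correlated at -0.127 for replicate 1 and at 0.207, 0.371 and 0.147 for replicates 2 to 4. Of the 4 normal rats, 3 correlated best with their own number. Rats of different numbers correlated at -0.297 to 0.201, so these values cannot tell whether the numbers mark pairs. The labels name no pairs, and the numbers were not used as pairs. With the replicate block 0 probe sets passed limma, with 1111 at an unadjusted p under 0.05; in this balanced design the block cannot change a difference of means, such as 0.121 for Xpo7. The mean over the probe sets of Xpo7 was 0.0416. Trend and robust eBayes and array weights also gave 0. With 8 arrays and no control of compression, small differences cannot be sized as amounts of RNA.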

Other observations

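Besides the genes named above, 6 named genes among the 100 widest probe sets were highest in high-fat replicate 1 and were looked at after their values were seen. They were the heparan sulfate cleaving enzyme Hpse (range 0.0161), the linker histone H1f2 (0.0113), the interferon regulator Irf7 (0.00956), the mitochondrial trafficking adaptor Trak2 (0.00946), Fam220a (0.00745) and the carbonic anhydrase Car2 through a probe set other than its brightest (0.00721).

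Among the 10 widest probe sets, those that were not members were Ldhb (range 0.204), Ifi27 (0.0756), Clec4a3 (0.0672), Gzmb (0.0660), Fcgr3a (0.0545) and 3 unnamed ones. Of these, 1 unnamed probe set (1375842_at, range 0.0584) was highest in high-fat replicate 1, and Ifi27, Clec4a3, Gzmb and Fcgr3a were highest in high-fat replicate 4. Without high-fat replicate 1, the genes with the highest r with Xpo7 over 7 arrays were Top1 (0.952), Arhgap30 (0.935), Gstt3 (0.930), Tspan8 (0.908) and Ubac1 (0.907).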
